A study of Xenopus tropicalis with 12 samples.

Results

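The regions described here are the places on the Xenopus tropicalis genome where every one of 12 thyroid hormone receptor ChIP-seq libraries had a peak. Peaks of all 12 lists that shared at least 1 bp on the same chromosome were merged, which gave 256032 regions, and 384 of these held a peak from each list. They are called core regions below. They were thus chosen by the peaks called in these same libraries. The presence of a peak in every library, and the height and length that make such a peak likely, therefore describe the core regions and are no finding about them. Libraries were made from tail of tadpoles at around stage 54. The 4 groups had 3 libraries each: TRα (-/-) tadpoles given 10 nM T3 for 18 h (KO T3), untreated TRα (-/-) tadpoles (KO control), wild-type tadpoles given the same T3 treatment (WT T3) and untreated wild-type tadpoles (WT control). Both genotypes came from the same parents, and all libraries used a non-commercial TR antibody. The labels do not say whether it recognises TRα, TRβ or both. The design note describes the 3 libraries of a group as technical replicates of material merged from several tadpoles, so p-values below refer to variation among libraries, while variation among animals was not measured. Peak lists cannot check the loss of the TRα protein.

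Thyroid hormone receptors are nuclear receptors that usually bind DNA as partners of the retinoid X receptor, with or without hormone. Without T3 the bound receptor recruits corepressors, and T3 exchanges these for coactivators. TRα is present in most tissues of the premetamorphic tadpole, whereas the TRβ gene is itself induced by T3, and the tail is the organ that T3 makes regress at metamorphosis. No input library was used in peak calling, and receptor binding therefore cannot be told apart from sequence that yields an excess of fragments with any antibody. Genes at these positions are not analysed here.

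Depth differed widely between libraries and sets the precision of every value below. Fragments after filtering numbered 820314, 1547243 and 149532 in the KO T3 libraries, 284375, 606620 and 858074 in KO control, 299393, 529290 and 774170 in WT T3, against 480140, 1024937 and 1382723 in WT control. The level of a region is the number of fragments over its highest summit per 1000000 fragments of that library (FPM). One fragment was worth 6.69 FPM in KO T3 library 3, the shallowest, and 0.646 FPM in KO T3 library 2, the deepest. The median core region had 5 fragments in KO T3 library 3, a level of 33.4 FPM with a 95% exact Poisson interval of 10.9 to 78.0, and 34 fragments in KO T3 library 2, a level of 22.0 FPM with an interval of 15.2 to 30.7. These intervals cover counting error only. A core region had under 5 fragments in 161 cases in KO T3 library 3, in 143 cases in KO control library 1 and in 101 cases in WT T3 library 1, against 0 to 57 cases in the other libraries.

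Most core regions were low, and few stood far above them. The median level over the 12 libraries ran from 6.36 to 831 FPM across core regions, with quartiles of 14.8 and 31.8 and a median of 20.9. It was over 50 FPM in 51 regions, over 100 in 23 and over 500 in 3. At least 10 fragments in every library were present in 47 core regions, and at least 100 in 3. Among the 100 tallest peaks of each list, 58 to 74 lay in core regions, although core regions held only 0.875% to 3.26% of a list's peaks. The median core region had a level of 20.7, 22.0 and 33.4 FPM in KO T3, 21.1, 19.0 and 18.6 in KO control, 23.4, 22.7 and 22.0 in WT T3, against 20.8, 20.5 and 21.7 in WT control. KO T3 library 3 was thus higher than the other 11, which spanned 18.6 to 23.4, and it is also the library with the fewest fragments. Its mean fragment in the header was also the shortest, 142 bp against 151 to 209 bp in the others. Every core region also had to have a peak in that library, where 1 fragment was worth 6.69 FPM and the median core region had 5. The part of depth, of fragment length or of this rule in that shift was not tested. All comparisons were therefore also made on levels centred on each library's median core region, called median-scaled below. Centring moves every region of a library by the same log2 amount. The shift of KO T3 library 3 was not the same at every level. In the chromosome 2 run described below that library had a median of 140 FPM, beside 143 and 128 in KO T3 libraries 1 and 2. At the tallest region it had 1117 FPM, beside 999.6 and 998.5.

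**Figure D1:**
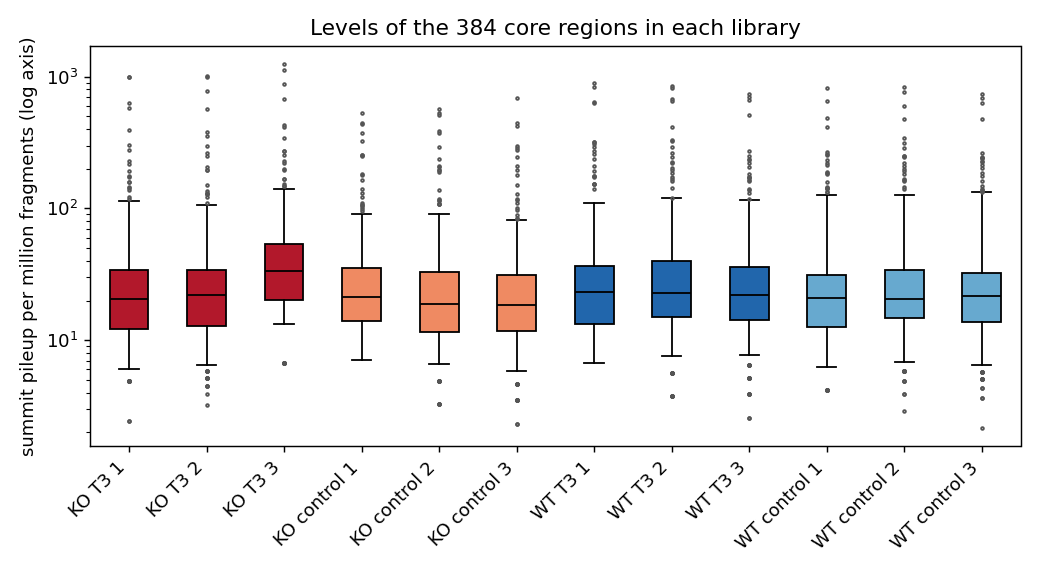
Level of the 384 core regions in each library, as FPM at the summit on a log axis. Boxes span the quartiles with the median as a line, whiskers reach the 5th and 95th percentiles, and points are regions beyond them. The box of KO T3 library 3 sits above the others, with a median of 33.4 FPM, and in every library the tallest region is at 527.5 FPM or above.

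The tallest core region spanned 35928549 to 35930448 on chromosome 5. Its levels were 999.6, 998.5 and 1117 FPM in KO T3, 527.5, 514.3 and 444.0 in KO control, 901.8, 848.3 and 663.9 in WT T3, against 820.6, 841.0 and 627.0 in WT control. All 3 KO control libraries were below the other 9. The second lay on chromosome 8 from 23529071 to 23530254, with 985.0, 1002 and 1244 FPM in KO T3, 446.6, 527.5 and 423.0 in KO control, 831.7, 814.3 and 737.6 in WT T3, against 647.7, 767.9 and 692.8 in WT control. Here too the KO control libraries were lowest, and the KO T3 libraries were above all WT libraries. A neighbour on chromosome 8, from 23523129 to 23524073, was the fourth tallest and had 575.4, 564.2 and 682.1 FPM in KO T3, 323.5, 374.2 and 285.5 in KO control, 634.6, 648.0 and 507.6 in WT T3, against 414.5, 475.2 and 475.1 in WT control. Its KO control libraries were again below the other 9. The third tallest, on chromosome 10 from 16969892 to 16970788, did not follow that order: it had 625.4, 778.2 and 882.8 FPM in KO T3, 436.0, 570.4 and 691.1 in KO control, 641.3, 674.5 and 704.0 in WT T3, against 489.4, 594.2 and 734.8 in WT control, and the 4 groups overlapped.

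The other 6 of the 10 tallest lay on chromosome 4 from 52501689 to 52502265, chromosome 3 from 110350625 to 110351523, chromosome 8 from 97813504 to 97814067, chromosome 5 from 145703921 to 145705799, chromosome 9 from 80023985 to 80024465 and chromosome 2 from 102114180 to 102116810. Their median levels ran down to 198 FPM for the one on chromosome 2. The summits of the 12 libraries fell close together in the 10 tallest regions, within 10 to 338 bp of each other and within a median of 88.5 bp. Over all core regions these highest summits spanned a median of 377.5 bp, and in 134 of 384 (34.9%) they lay within 200 bp. Further summits of a list were not counted in this span.

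Core regions had a median length of 1043 bp, with quartiles of 698 and 1703.25 bp and a range of 257 to 7624 bp. Merging more lists lengthens a region by construction, and regions of 11 lists had a median of 1040.5 bp, those of 2 to 9 lists 514 bp and those of 1 list 226 bp. Within single lists, the median peak of a core region was 739.5, 870 and 458 bp long in KO T3, 481, 679.5 and 756.5 bp in KO control, 544, 697 and 768 bp in WT T3, against 600.5, 811.5 and 852 bp in WT control, so peaks were shortest in the shallow libraries. A core region had exactly 12 summits, 1 per list, in 262 cases (68.2%), 13 to 23 in 111 and 24 or more in 11. Length followed the number of summits (Spearman's rho 0.76 across the 384 regions) and the span of the highest summits of the lists (rho 0.74). It did not follow the level (rho -0.02). These coefficients are descriptions of regions that share their libraries.

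Long core regions were of more than one kind. The longest, on chromosome 7 from 97045575 to 97053198, was 7624 bp long with 27 summits. The highest summits of the 12 libraries were spread over 6944 bp there, and its levels were low, 7.75 to 46.8 FPM. The next, on chromosome 4 from 39864820 to 39871369, was 6550 bp long with 28 summits, yet the highest summits of the 12 libraries fell within 268 bp and its levels were 72.3 to 107 FPM. The most summits, 32, were in a region on chromosome 4 from 38658222 to 38662949, at 47.8 to 86.9 FPM, and in one on chromosome 2 from 90731550 to 90736271, at 14.1 to 60.2 FPM.

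The lower edge of the set lay at very few fragments. The lowest core region spanned 98945406 to 98948037 on chromosome 2, with 1 to 9 fragments in a library, at 3.50 to 9.04 FPM. Just outside, 424 regions had a peak in 11 of the 12 lists. The missing library was KO T3 3 for 132 of them, KO control 1 for 124 and WT T3 1 for 75, the 3 libraries with the fewest fragments. The highest region just outside spanned 20070398 to 20071041 on chromosome 10, with 45 to 194 fragments in 11 libraries, a median of 125 FPM, and no peak in KO T3 library 3.

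The next comparisons asked whether levels at core regions differed with T3 and with TRα. They were made with limma on log2 levels of the 1776 regions that 2 or more lists of every group covered, which include all 384 core regions, with Benjamini-Hochberg adjustment over the 1776 and a threshold of 0.05.

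In wild-type tail no core region passed the test between WT T3 and WT control. limma called 0 of 384, the background over all 1776 regions was 0%, and the smallest adjusted p of a region was 0.504. At an unadjusted p under 0.05 there were 19 core regions. The median log2 fold change of core regions was 0.14, beside 0.24 over all 1776. KO T3 and WT T3 also gave 0 called core regions with a background of 0%, 28 at an unadjusted p under 0.05 and a smallest adjusted p of 0.262. The median log2 fold change there was 0.07 over core regions and -0.11 over all regions. Without KO T3 library 3 it was -0.12 and -0.32, so its sign over core regions rested on that library. A count of 0 in this design does not show that levels were the same.

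At core regions the KO control libraries resembled the other 9 less than the 6 WT libraries resembled each other. Pearson correlations of log2 levels across the 384 regions were 0.642 to 0.783 between KO control and the other 9. Among the 6 WT libraries they were 0.795 to 0.908. Among the 3 KO control libraries they were 0.773 to 0.829, which overlaps their range with the other 9. KO T3 libraries 1 and 2 had correlations of 0.811 to 0.903 with the 6 WT libraries. KO T3 library 3 had 0.725 to 0.778 with the 8 others outside KO control. After median scaling, all 3 KO control libraries were above the other 9 at 20 core regions, 5.21% against 6.98% of all 1776, and below them at 16, 4.17% against 2.93% of all. On the FPM scale the balance was the reverse, with 10 above, 2.60% against 3.04% of all, and 33 below, 8.59% against 5.74%. Regions outside the core were counted over the libraries with a peak. KO control libraries outside the range of the rest were thus not particular to core regions. The median-scaled count gave 1 above and 4 below for KO T3, with backgrounds of 0.225% and 3.32%, 1 and 1 for WT T3, with 1.75% and 1.01%, and 3 and 1 for WT control, with 0.957% and 1.46%.

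KO control differed from WT control at 17 of 384 core regions, 4 higher and 13 lower. The background was 1.63% of the 1776 regions called, 0.45% higher and 1.18% lower. The 1776 include the core regions, which gave 17 of the 29 calls. Unlike the core, regions outside it lacked a level in some libraries. After median scaling 27 core regions were called, 13 higher and 14 lower, beside 2.42%, 1.24% higher and 1.18% lower. On both scales 15 core regions were called. The median log2 fold change was -0.11 over core regions and 0.04 over all.

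The core region that varied most between libraries spanned 6443944 to 6444568 on chromosome 5. Its levels were 23.2, 33.0 and 153.8 FPM in KO T3, 372.7, 387.4 and 297.2 in KO control, 40.1, 56.7 and 41.3 in WT T3, against 27.1, 47.8 and 36.2 in WT control. The 3 KO control libraries were far above all others, KO T3 library 3 lay between, and KO T3 libraries 1 and 2 lay among or below the WT libraries. The log2 fold change of KO control over WT control was 3.28 (SE 0.43, limma adjusted p 3.61e-05), and that of KO T3 over KO control was -2.84 (SE 0.43, limma adjusted p 0.000245).

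On chromosome 8, the region spanning 82453567 to 82454428 had a like order of libraries. Its levels were 18.3, 19.4 and 80.3 FPM in KO T3, 165.3, 196.2 and 197.0 in KO control, 20.04, 18.9 and 16.8 in WT T3, against 18.7, 16.6 and 25.3 in WT control. KO control exceeded WT control by a log2 fold change of 3.22 (SE 0.41, limma adjusted p 3.6e-05), and KO T3 over KO control gave -2.60 (SE 0.41, limma adjusted p 0.000413). A shorter region of 349 bp, spanning 12218456 to 12218804 on chromosome 6, showed 23.2, 25.2 and 193.9 FPM in KO T3, 253.2, 189.6 and 150.3 in KO control, 30.1, 26.5 and 16.8 in WT T3, against 29.2, 32.2 and 25.3 in WT control. Here KO T3 library 3 reached the KO control range while KO T3 libraries 1 and 2 matched the WT range. The log2 fold change of KO control over WT control was 2.75 (SE 0.50, limma adjusted p 0.00165). What sets KO T3 library 3 between the other KO T3 libraries and KO control at these 3 regions was not tested. After median scaling KO control was above every other library at 20 core regions, and KO T3 library 3 was the highest of the other 9 in 5. At the 16 where KO control was below every other, it was the lowest of the 9 in 5. Over all 384 core regions it was the highest of the 9 in 77 and the lowest in 88. Both sets were picked with KO T3 library 3 outside the KO control range, so these counts cannot show how general its position was.

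The fourth region that was higher in KO control lay near the end of chromosome 7, from 116368814 to 116369254. It had 23.2, 27.8 and 13.4 FPM in KO T3, 45.7, 36.3 and 39.6 in KO control, 10.0, 17.0 and 12.9 in WT T3, against 6.25, 14.6 and 9.40 in WT control. KO control libraries were above all 9 others, and the log2 fold change over WT control was 2.09 (SE 0.42, limma adjusted p 0.00338).

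**Figure D2:**
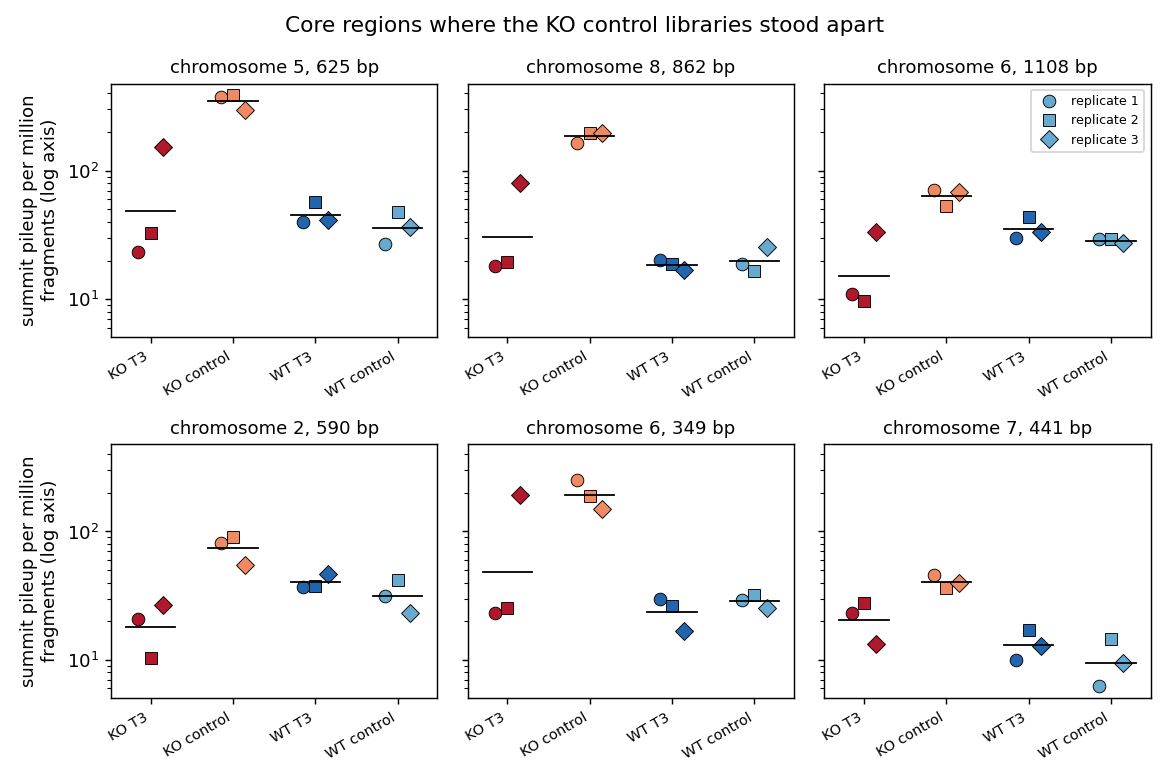
Level in each library, in FPM on a log axis, of core regions called higher in KO control than in WT control or than in KO T3. Each panel is a region, titled by its chromosome and length, each point is a library and the line is the geometric mean of a group. At the chromosome 5 region from 6443944 the KO control libraries reach 297.2 to 387.4, and KO T3 library 3, at 153.8, stands between them and the rest.

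Of the 13 core regions that were lower in KO control than in WT control, 9 belonged to a single run on chromosome 2. There 10 core regions lay between 102075246 and 102158413, over 83168 bp, more than in any other chain of core regions with gaps of at most 100000 bp. All 10 were among the 21 highest of the 384. Their median level was 143, 128 and 140 FPM in KO T3, 66.8, 80.8 and 57.1 in KO control, 185, 190 and 168 in WT T3, against 152, 187 and 169 in WT control. By these medians the KO control libraries were below all others, and the KO T3 libraries lay between these and the WT libraries. Single regions did not all keep that order. At the one from 102114180 the KO T3 libraries, at 217.0, 204.9 and 227.4 FPM, were above the WT control libraries, at 185.4, 191.2 and 184.4.

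At the region from 102078664 to 102079612 in this run, levels were 175.5, 195.8 and 167.2 FPM in KO T3, 63.3, 107.2 and 64.1 in KO control, 237.1, 247.5 and 170.5 in WT T3, against 233.3, 210.7 and 224.9 in WT control. The log2 fold change of KO control over WT control was -1.56 (SE 0.21, limma adjusted p 4.92e-05). The regions from 102095302, 102152721 and 102155950 gave -1.55, -1.49 and -1.43, with SEs of 0.20, 0.22 and 0.20 and limma adjusted p of 3.6e-05, 0.000133 and 8.08e-05. Over the 10 core regions of the run, the difference of KO control from WT control spanned -1.56 to -0.63 with a median of -1.23. That of KO T3 from WT T3 spanned -0.51 to -0.22 with a median of -0.34, below 0 at all 10, and none was called. KO T3 minus KO control spanned 0.74 to 1.24 with a median of 0.99, above 0 at all 10. Of these, 9 were called, and 0 after median scaling. Median scaling lowered KO T3 library 3 against the rest, and on the FPM scale its levels here were near those of KO T3 libraries 1 and 2. The part of that library in the loss of these calls was not tested. WT T3 minus WT control spanned -0.20 to 0.53. Another 14 regions in the run and at its edges, from 102070446 to 102162865, that had peaks in 9 to 11 lists gave a median difference of KO control from WT control of -1.20, below 0 at 14 of 14. Most of these lacked a peak in a KO control library. At those from 102070446, 102072514, 102099194 and 102154732 the KO control value rests on 1 library. As neighbours in the same libraries they are no separate evidence.

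Fold enrichment was low along this run despite the high levels. The authors' median fold enrichment over the surrounding 10000 bp was 2.95 to 7.71 for its 10 regions, while that of the 10 tallest core regions, 1 of them in the run, was 7.71 to 29.9. The fold enrichment is the authors' value within each list, with a constant added.

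**Figure D3:**
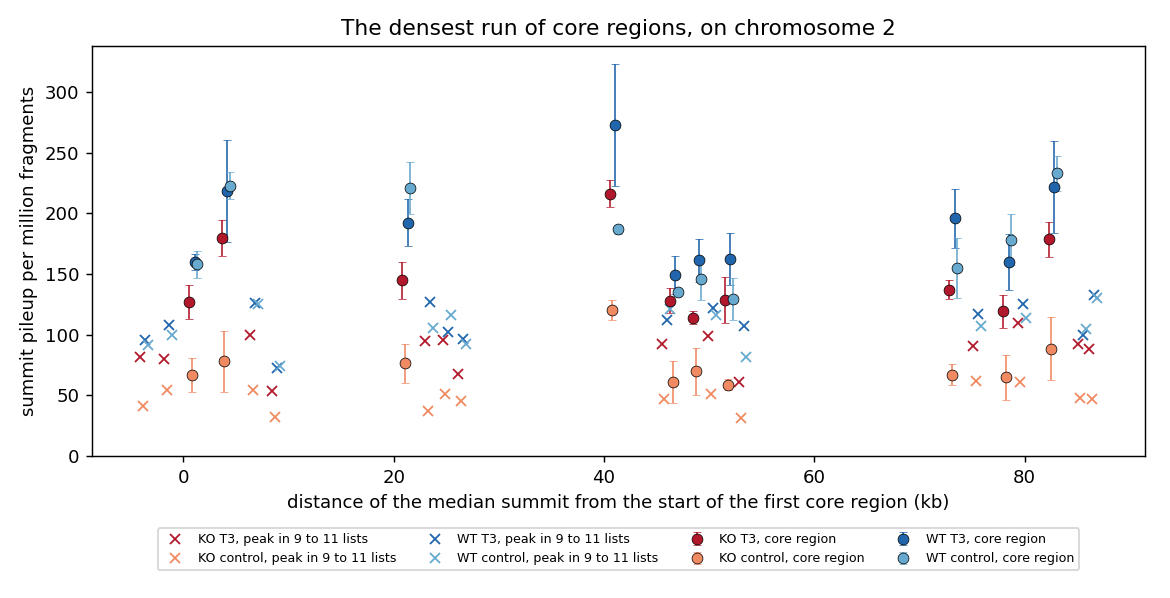
Levels along the run of core regions on chromosome 2, in FPM against the distance in kb from its start, as means of the 3 libraries of each group. Dots with SD bars are core regions and crosses are regions with peaks in 9 to 11 lists. A cross is the mean of only those libraries of a group that had a peak. The KO control group lies below the 3 other groups at every core region of the run, by a median log2 difference of -1.23 from WT control.

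The next largest chains were lower and held no called region. A chain of 5 core regions on chromosome 2 from 90683816 to 90807543 had median levels of 23.2, 22.0 and 33.4 FPM in KO T3, 14.1, 31.3 and 23.3 in KO control, 23.4, 26.5 and 27.1 in WT T3, against 29.2, 27.3 and 28.2 in WT control. The KO T3 and KO control libraries overlapped, and 0 of its regions were called in any of the 4 comparisons of groups. A chain of 5 on chromosome 10 from 2910702 to 3034574 had 20.7, 24.6 and 33.4 FPM in KO T3, 10.5, 14.8 and 12.8 in KO control, 26.7, 20.8 and 18.1 in WT T3, against 18.7, 23.4 and 21.0 in WT control. Its KO control libraries were below the other 9, as in the larger run. The log2 fold change of KO control over WT control spanned -0.87 to -0.23 over its 5 regions, with a median of -0.60, and 0 of them were called.

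Outside the run, the region spanning 71371865 to 71372382 on chromosome 1 had 113.4, 89.2 and 73.6 FPM in KO T3, 80.9, 44.5 and 39.6 in KO control, 106.9, 98.2 and 85.3 in WT T3, against 133.3, 122.9 and 115.7 in WT control. The KO control and WT control libraries did not overlap (limma adjusted p 0.00603). It is named, although the rule for named regions did not reach it, to complete the 13. Another call rested on single libraries. That region lay on chromosome 7 from 30889887 to 30890288, with 45.1, 30.4 and 46.8 FPM in KO T3, 10.5, 18.1 and 19.8 in KO control, 56.8, 34.0 and 40.0 in WT T3, against 43.7, 37.1 and 40.5 in WT control. The KO control libraries were below all others, and the log2 fold change over WT control was -1.37 (SE 0.34, limma adjusted p 0.0329), but the call was lost without KO control library 1 or 2 or without any single WT control library (adjusted p up to 0.175). The 2 tallest core regions were also lower in KO control than in WT control, with log2 fold changes of -0.62 on chromosome 5 and -0.60 on chromosome 8 (limma adjusted p 0.0034 and 0.0017). After median scaling neither passed, with adjusted p of 0.106 and 0.0736.

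KO T3 differed from KO control at 33 of 384 core regions, 28 higher and 5 lower. The background was 2.42% of all 1776 called, 1.8% higher and 0.619% lower, and core regions gave 33 of the 43 calls in it. The split of core regions into higher and lower depended on the scale. After median scaling 10 core regions were called, 4 higher and 6 lower, beside a background of 1.01%, 0.282% higher and 0.732% lower, and 9 were called on both scales. On the FPM scale the count was 19 without KO T3 library 3, and 8, 5 higher and 3 lower, when only the KO T3 and KO control libraries were fitted. The comparison shares its KO control libraries with the one above, so each is given by its own values and their overlap is no separate evidence. The median log2 fold change was 0.32 over core regions and 0.09 over all regions, and without KO T3 library 3 it was 0.08 and -0.14.

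The region that was higher in KO T3 by the widest margin lay on chromosome 8 from 108179986 to 108180815. It had 42.7, 42.0 and 86.9 FPM in KO T3, 17.6, 8.24 and 8.16 in KO control, 30.1, 32.1 and 12.9 in WT T3, against 33.3, 40.0 and 23.9 in WT control. All 3 KO T3 libraries were above KO control, and the log2 fold change was 2.35 (SE 0.43, limma adjusted p 0.00207), or 2.00 after median scaling (adjusted p 0.00258). Next came a region on chromosome 5 from 9934393 to 9935224, with 15.8, 16.8 and 40.1 FPM in KO T3 and 7.03, 8.24 and 3.50 in KO control. Its groups did not overlap, and its log2 fold change was 1.91 (SE 0.47, limma adjusted p 0.0268). Without KO T3 library 3, however, the adjusted p was 0.124 and without KO control library 3 it was 0.210. After median scaling this region did not pass (limma adjusted p 0.0815), and its KO control levels rest on 2, 5 and 3 fragments. The region spanning 5409967 to 5411298 on chromosome 8 had 39.0, 37.5 and 86.9 FPM in KO T3 and 14.1, 19.8 and 14.0 in KO control. Its log2 fold change was 1.68 (SE 0.36, limma adjusted p 0.00808), with an adjusted p of 0.0584 without KO T3 library 3 and 0.0366 after median scaling. At each of these, KO T3 library 3 was the highest of its group. The 5 called regions with the largest rise and no overlap also held those on chromosome 4 from 2457254 and chromosome 9 from 78411744, at 1.62 and 1.59 (limma adjusted p 0.0333 and 0.039). Both lost the call without KO T3 library 3 (adjusted p 0.133 and 0.175), without other single libraries and after median scaling (adjusted p 0.123 and 0.124). Smaller rises at the 2 tallest core regions were called on both scales. On chromosome 8 from 23529071 the rise was 1.21 (SE 0.11, limma adjusted p 1.72e-07), or 0.86 after median scaling (adjusted p 0.000434). On chromosome 5 from 35928549 it was 1.07 (SE 0.12, limma adjusted p 5.5e-06), or 0.73 after median scaling (adjusted p 0.0132).

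Of the 5 core regions that were lower in KO T3 than in KO control, those on chromosomes 5 and 8 from 6443944 and from 82453567 were described above. Another lay on chromosome 6 from 69210941 to 69212048, with 10.97, 9.69 and 33.4 FPM in KO T3, 70.3, 52.8 and 68.8 in KO control, 30.1, 43.5 and 33.6 in WT T3, against 29.2, 29.3 and 27.5 in WT control. KO T3 libraries 1 and 2 were below all others and the KO control libraries above all others, and the log2 fold change was -2.05 (SE 0.39, limma adjusted p 0.00271). A further one lay on chromosome 2 from 155159734 to 155160323 and had 20.7, 10.3 and 26.8 FPM in KO T3, 80.9, 90.7 and 54.8 in KO control, 36.7, 37.8 and 46.5 in WT T3, against 31.2, 42.0 and 23.1 in WT control. The KO control libraries were again above all others, and the log2 fold change was -2.04 (SE 0.36, limma adjusted p 0.0016). The last was the chromosome 6 region from 12218456, at -1.998 (adjusted p 0.029), whose groups overlapped through KO T3 library 3.

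**Figure D4:**
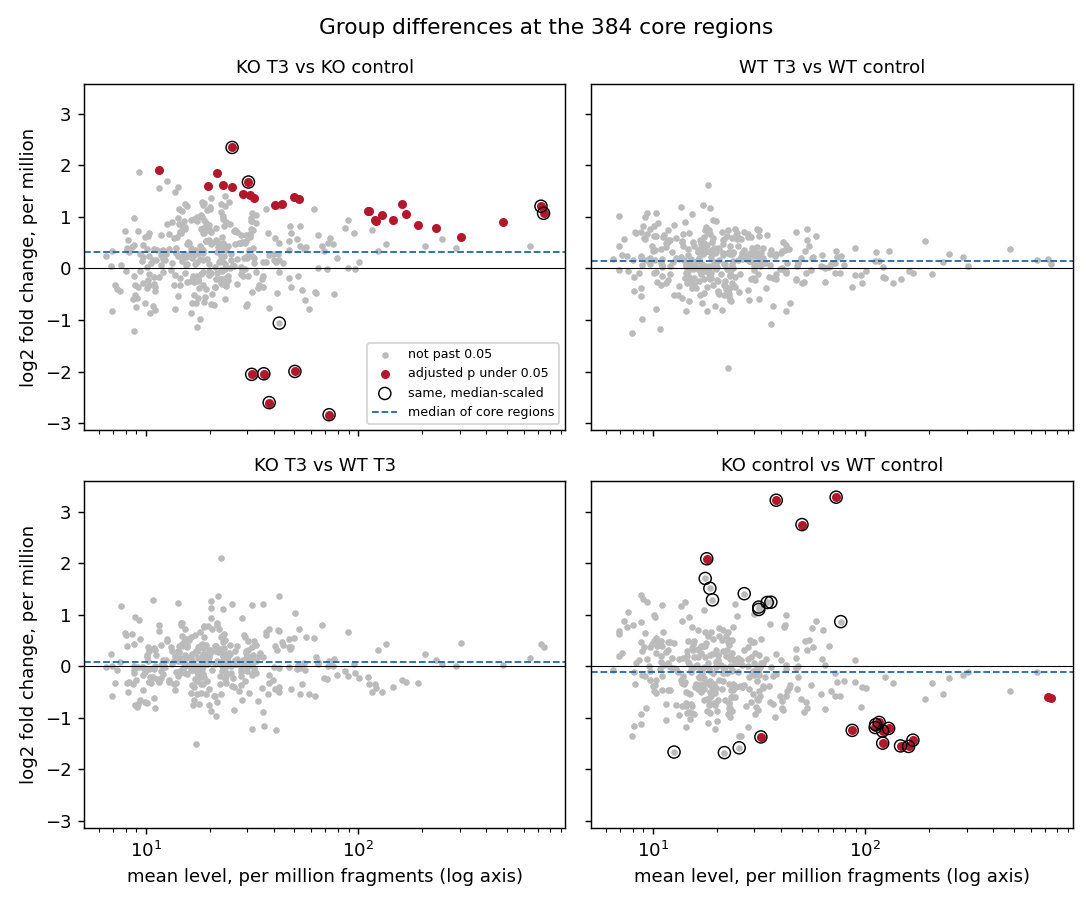
Log2 fold change of each core region in the 4 comparisons against its mean level, with regions past an adjusted p of 0.05 in red, those past it after median scaling circled, and the median of core regions as a dashed line. KO T3 vs KO control has 33 red points and KO control vs WT control 17, while WT T3 vs WT control and KO T3 vs WT T3 have 0.

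A direct test took the difference between the T3 effect in TRα (-/-) tail and that in wild-type tail. It called 5 of 384 core regions, 3 higher and 2 lower, beside a background of 0.338%, in which core regions gave 5 of 6 calls. After median scaling it called 5, 1 higher and 4 lower, beside 0.394%, 0.0563% higher and 0.338% lower, and 3 were called on both scales. The 2 tallest regions were among the 5 called on the FPM scale. On chromosome 8 from 23529071 the difference was 1.03 (SE 0.16, limma adjusted p 0.00171), and on chromosome 5 from 35928549 it was 0.99 (SE 0.17, limma adjusted p 0.0059). Neither passed after median scaling (adjusted p 0.0802 and 0.166). The chromosome 5 region from 6443944 had a difference of -3.17 (SE 0.61, limma adjusted p 0.00959) and passed on both scales, but not without WT T3 library 2 (adjusted p 0.0752) or without WT control library 1 (adjusted p 0.0914).

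The core regions with the lowest SD between libraries were also spread over the range of levels. The lowest SD of the median-scaled log2 level was 0.19, on chromosome 2 from 139410190 to 139410719, where levels were 11.5 to 26.8 FPM. Such levels rest on few fragments in the shallow libraries, with 1 fragment worth 6.69 FPM in KO T3 library 3. As the lowest of 384 values, this SD does not show that the region was stable. The region spanning 37105438 to 37108724 on chromosome 5 had an SD of 0.21 at 18.1 to 40.1 FPM, and the seventh tallest, on chromosome 8 from 97813504, had 0.22 at 179 to 415 FPM. The highest SDs were 1.56, 1.55 and 1.46, for the chromosome 5, 8 and 6 regions that were high in KO control. Within groups, the SD of the log2 level between the 3 libraries was 0.515 for the median core region in KO T3, 0.436 in KO control, 0.411 in WT T3 and 0.329 in WT control. After median scaling, the variance of the 3 libraries over that expected from counting had a median of 0.96 in KO T3, 1.00 in KO control, 0.944 in WT T3 and 1.02 in WT control, above the 0.693 that counting error alone gives with 3 libraries.

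Core regions were unevenly spaced. The median distance to the next core region along the chromosome was 656570 bp, with a range of 300 to 89206892 bp. Another lay within 100000 bp for 122 of 384 (31.8%, 95% exact binomial interval 27.1 to 36.7). This interval and the one for chromosome ends below treat regions as independent, which neighbours in a run are not. Regions of 11 lists gave 27.8% and those of 10 lists 32.6%, each counted within its own class, so this share was not particular to the core. The longest stretch without one was on chromosome 3, between 21143732 and 110350625, where the next core region is the sixth tallest. Others were on chromosome 2 from 19581029 to 80212604 and on chromosome 1 from 121798882 to 180451764. Density was lowest on chromosome 1, at 0.185 core regions per Mb, and highest on the short chromosome 10, at 0.876 per Mb, while merged regions of all kinds numbered 194 to 227 per Mb on every chromosome.

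Many core regions lay near chromosome ends, taken here as the first base and the end of the last peak. Within 5 Mb of an end were 149 of 384 (38.8%, interval 33.9 to 43.9), against 9.04% of all merged regions and 7.86% of the covered length. Regions with peaks in 11 lists gave 39.9% and those of 10 lists 45.6%, so the share was not particular to the core. Regions of 2 to 9 lists gave 21.9% and regions of 1 list 7.18%. On chromosome 10, 23 of 35 core regions were within 5 Mb of an end. Its last peak ended at 39.9 Mb, so these windows cover a larger share of it than the 7.86% over all chromosomes. Level went with position to a small extent (Spearman's rho 0.21 between distance from the end and mean log2 level, across 384 regions). The 149 near ends had a median level of 18.4 FPM, and 2 of them exceeded 100 FPM. The 235 farther inside had a median of 23.3 FPM, and 21 of them exceeded 100, 10 of these in the run on chromosome 2.

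**Figure D5:**
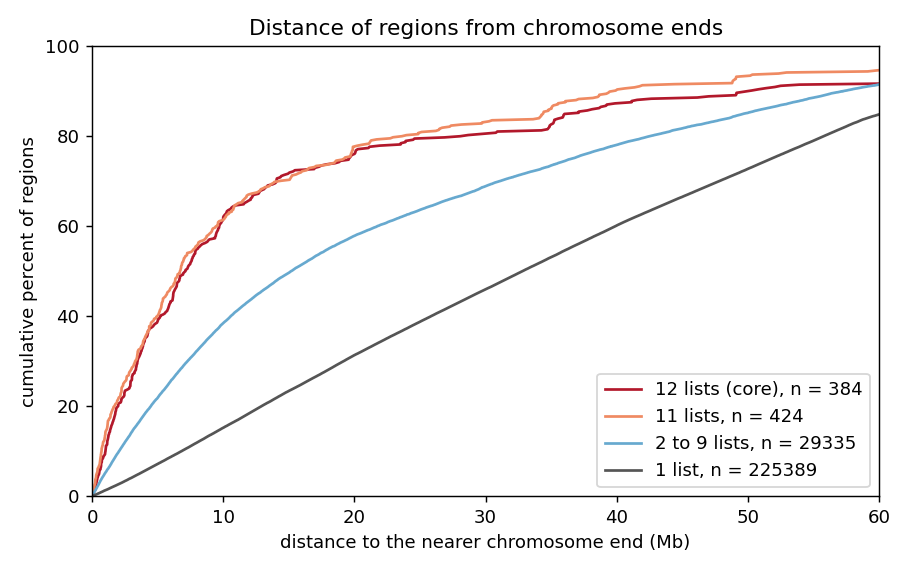
Cumulative percent of regions against the distance to the nearer chromosome end in Mb, for core regions, regions of 11 lists, of 2 to 9 lists and of 1 list. The curves of core regions and of 11-list regions rise together and lie above the 2 others over most of the axis, with 38.8% and 39.9% of regions within 5 Mb.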

How the data were processed

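Chromatin from tadpole tail was immunoprecipitated with a TR antibody and sequenced, 3 libraries in each of 4 groups set by the labels' genotype and treatment. Per the submitters' processing notes, Bowtie2 2.3.4.1 and MACS2 2.1.1.20160309 were used. Per the file headers, peaks were called in each library on its own from paired-end fragments after removal of duplicates, without a control library, with build 9.1 as the genome, its effective size set to 1510000000 bp, the local background taken over 10000 bp and q held to 0.05. The deposited pileup is a signal, the fragments over a summit, unscaled per the file headers. The deposited fold enrichment is a ratio of pileup to local background that MACS2 gave the authors for each library. The deposited −log10 q values set a stricter threshold, and the −log10 p values chose between summits of equal pileup within a list.

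Coordinates count from 1. Lists were merged in Python 3.11.15 (at least 1 bp shared). Pileups were divided by the fragments after filtering in the header, per 1000000. The highest summit of a list was a region's level, and log2 levels were tested in limma 3.58.1 under R 4.3.3, without a pseudocount, over 1776 regions covered by 2 or more lists of each group. Merging and fit were tested on simulated data. The members, the rule for named regions (the 10 highest, up to 5 called and not overlapping per direction, and the extremes of length, summits, level, variability and spacing) and the tests were chosen with earlier results of these data known. Deviations of same-numbered libraries had correlations of -0.0855 to 0.212, with a median of 0.0264 and 3 of 18 over 0.1. Pairs of other numbers had -0.137 to 0.127, with a median of -0.00943 and 2 of 36 over 0.1. The highest correlation was with a same-numbered library for 7 libraries and with another number for 5, although pairs of other numbers were more, 36 against 18. Correlations by replicate number were small in size, and the main fit did not include that number. A replicate block moved the called differences of T3 effects from 5 to 10, so it was not without effect. Headers gave library 3 of each group a sample sheet number of 21 to 24. Libraries 1 and 2 of a group had the same number, from 9 to 12. Each range of numbers thus held all 4 groups, but the numbers do not say whether libraries 1 and 2 were handled together. Alternatives were median scaling, summed summits, 1 added fragment, other region sets, library weights, a replicate block, only the groups compared and each library left out.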

Additional observations from a re-analysis of the deposited data

Results flagged for a closer look

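At 5 core regions the T3 effect in TRα (-/-) tail (KO T3 over KO control) differed from that in wild-type tail (WT T3 over WT control) by limma's test of the difference itself. On the log2 scale the difference was -3.17 on chromosome 5 from 6443944, -2.41 on chromosome 2 from 155159734, 0.99 on chromosome 5 from 35928549, 1.03 on chromosome 8 from 23529071 and 2.80 on chromosome 8 from 108179986. Adjusted p was 0.00959, 0.0312, 0.0059, 0.00171 and 0.0312 in that order of regions. At 4 of them the KO control libraries lay above or below every WT library. On chromosome 8 from 108179986 KO control had 17.6, 8.24 and 8.16 FPM, and WT T3 library 3, at 12.9 FPM, fell within that range. The regions on chromosome 2 and on chromosome 8 from 108179986 lost the call when single libraries were left out (adjusted p up to 0.127 and 0.138). The chromosome 5 region from 6443944 lost it without WT T3 library 2 (adjusted p 0.0752) and without WT control library 1 (0.0914). The 2 tallest regions, on chromosome 5 from 35928549 and chromosome 8 from 23529071, lost it after median scaling (adjusted p 0.166 and 0.0802).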

How the results depend on the processing

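WT T3 against WT control gave 0 called core regions in every alternative run. For KO T3 against KO control, 33 became 10 after median scaling, 8 with only the groups compared and 15 after median scaling without KO T3 library 3, and leaving out single libraries gave 19 (without KO T3 library 3) to 33. For KO control against WT control, 17 became 27 after median scaling, 34 with core regions alone in the fit, 33 with library weights and 31 after median scaling without KO T3 library 3, with 14 to 33 when single libraries were left out, 33 being without KO T3 library 3. For KO T3 against WT T3, 0 became 4 with library weights and 1 after median scaling without KO T3 library 3, and 0 to 1 with single libraries left out. For the difference of T3 effects, 5 became 3 with 1 fragment added, 12 with core regions alone, 13 with library weights and 9 after median scaling without KO T3 library 3. Leaving out single libraries gave 2 (without WT T3 library 2 or WT control library 1) to 10 (without KO T3 library 3), and 3 without WT T3 library 1. With the replicate block these counts were 30, 21, 0 and 10, and 0 for WT T3 against WT control. Correlations between deviations of same-numbered libraries were small, at most 0.212. Median scaling without KO T3 library 3 was chosen after seeing the data. At the regions named, 404 of 470 alternative values stayed on their side of the threshold, 66 lost the call and 0 reversed. These values were picked for passing the threshold in the main fit. Several alternatives, such as leaving out a library of a group not compared, cannot change the fold change. The tally is therefore no test of the calls. The number of core regions was 314 with windows around summits, 283 with at least 3 fragments, 395 when peaks up to 500 bp apart were merged, 74 at a −log10 q of at least 5, and 383 to 516 without single lists (516 without KO T3 library 3). The share with a neighbour within 100000 bp was 5.41% at the stricter threshold and 31.25% to 37.4% without single lists, and the median length was 674.5 bp with summit windows, 901 bp at the stricter threshold and 985 to 1072 bp without single lists. The causes of these shifts were not tested, beyond the smaller number of libraries or regions. Depth limits the rest: 149 of 384 core regions had at least 5 fragments in every library, so a called difference among the others rests on few fragments.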
